A study of Mus musculus with 4 samples.

Results

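The lymphatic chemokine system was described by 8 genes, of 32285 counted in single cells from mouse collecting lymphatics and adjoining tissue. They were taken by gene symbol: the ligands Ccl21a, Ccl19 and Cxcl12, the receptors Ccr7 and Cxcr4, and the atypical receptors Ackr1, Ackr2 and Ackr4. Vessels were dissected from 4 female and 4 male C57BL/6J mice aged 12 to 14 weeks, for which the labels name no treatment and no engineered allele. Vessels of 4 body regions (the mesentery, the superficial neck, and the popliteal and inguinal axillary routes) were pooled per mouse and dissociated with enzymes. Cells of the 4 mice of a sex shared a gene expression library and a library of the oligonucleotide tags that mark each mouse. The deposited barcodes end in a number from 1 to 8, here called the suffix, which the labels tie to neither a mouse nor a sex. All cells were therefore treated as 1 pooled sample, females were not compared with males, and no test between conditions was possible.

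CCL21 and CCL19 are the ligands of CCR7, the receptor that leads dendritic cells and lymphocytes towards lymphatic vessels and through lymph nodes. CXCL12 acts through CXCR4 and retains or recruits leukocytes in many tissues. Atypical receptors bind chemokines without the usual G protein signal: ACKR4 takes up CCL19, CCL21 and CCL25, ACKR2 takes up inflammatory CC chemokines and is known from lymphatic vessels of the skin, and ACKR1 carries chemokines across the endothelium of small veins. Initial lymphatic vessels, which take up fluid and cells, are known for the surface receptor LYVE1, whereas collecting vessels carry lymph onward, have valves and smooth muscle and hold little of it.

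The mouse genome carries several near-identical copies of the Ccl21 gene close together on chromosome 4, and Ccl21a is known to encode the serine form of the protein and the others a leucine form. The sequences are shown because the Ccl21a counts depend on telling these copies apart. In GENCODE M21 on GRCm38, Ccl21a lies on the minus strand (chr4:42772860-42773993). Within the coding sequence of 399 bases, counted from 1 at the first base of the start codon, each of the copies Gm21541, Gm13304 and Ccl21b differed from Ccl21a by T84A and C194T. The coding strand is given 5′ to 3′ around position 194, with the base that differs in capitals; the window spans an intron, so its genomic interval is longer than the run.
Ccl21a (chr4:42773523-42773657, minus strand): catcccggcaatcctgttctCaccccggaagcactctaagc
Gm21541 (chr4:41903946-41904080, plus strand): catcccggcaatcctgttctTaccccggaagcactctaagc
Gm13304 (chr4:42115120-42115254, plus strand): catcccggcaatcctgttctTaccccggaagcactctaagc
Ccl21b (chr4:42256028-42256162, plus strand): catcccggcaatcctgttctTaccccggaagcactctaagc
Around position 84 the same transcripts read as follows.
Ccl21a (chr4:42773727-42773855, minus strand): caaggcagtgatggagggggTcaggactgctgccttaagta
Gm21541, Gm13304 and Ccl21b: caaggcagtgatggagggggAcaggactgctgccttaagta
After the coding sequence the transcripts of Gm21541 and Gm13304 differed from that of Ccl21a at 3 positions in 396 bases. The annotated Ccl21b transcript ended at its stop codon. Over all barcodes Ccl21a had 11502 UMIs, distinct captured molecules, against 20 for Gm21541 and 0 each for Gm13304 and Ccl21b. How reads that match several copies were treated is not stated in the sources used, so values of Ccl21a may include molecules of other copies or lack molecules of its own.

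The other members lie elsewhere in the same build. Cxcr4 is at chr1:128588199-128592293 (minus strand), Ccl19 at chr4:42754525-42756577 (minus), Cxcl12 at chr6:117168535-117181367 (plus), Ackr2 at chr9:121898355-121911074 (plus) and Ccr7 at chr11:99144196-99155077 (minus). Ackr1 (chr1:173331886-173333750, minus) overlaps Cadm3, a cell adhesion gene on the same strand. Ackr4 (chr9:104084157-104126933, minus) overlaps Acad11 on the opposite strand. Both Ccl19 and Ccl21a lie opposite the non-coding gene 4930578G10Rik. Whether counting used the strand is likewise not stated. Over all barcodes the members had from 1603 UMIs for Ackr2 to 39389 for Cxcl12. A second feature row each for Ccl21a and Ccl19, on an unplaced scaffold, had 4 and 0 UMIs and was not added.

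The matrix held 24046 barcodes, 232753017 gene UMIs and medians of 8684.5 UMIs and 2866 genes a barcode. Filters removed 380 barcodes and doublet scoring 719 (3.04%), which left 22947 cells. A cell was put in a class by its levels of fixed marker genes, none of which was a member; 20030 cells fell into 25 classes and 2917 (12.71%) into none. Suffixes 1 to 4 and 5 to 8 carried the same 4 tags, shared no barcode sequence within a set and shared 44 across the sets. Epithelial cells (177) came only from suffixes 1 to 4. Values are given in CPM, UMIs of a gene scaled to a class total of 1000000 gene UMIs, with exact Poisson 95% intervals, and ratios with exact binomial ones. These intervals cover counting error only, since cells of 1 pooled sample are not replicates. Levels per suffix show the spread over unlabelled samples, for suffixes with at least 5 cells of a class.

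Lymphatic endothelial cells were taken by Prox1, the transcription factor that specifies them, with other lymphatic markers. Those with a Lyve1 UMI were called initial (103 cells, median 12369 UMIs) and those with none collecting (429 cells, 9217). Of the endothelial markers, Cdh5 was found in 92.2% of initial and 93.2% of collecting cells, and the valve gene Foxc2 in 48.5% and 56.6%. Lyve1 is not confined to lymphatic cells: 87.4% of macrophages had a Lyve1 UMI, as did 4.3% of B cells. Among the 103 initial cells, 30 had a single Lyve1 UMI, 10 had 2 to 9 and 63 had 10 or more. Blood endothelium, which lacks Prox1, was venous-type (93 cells, 90.3% with Selp) or other (186 cells, 88.2% with the capillary gene Rgcc).

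**Figure D1:**
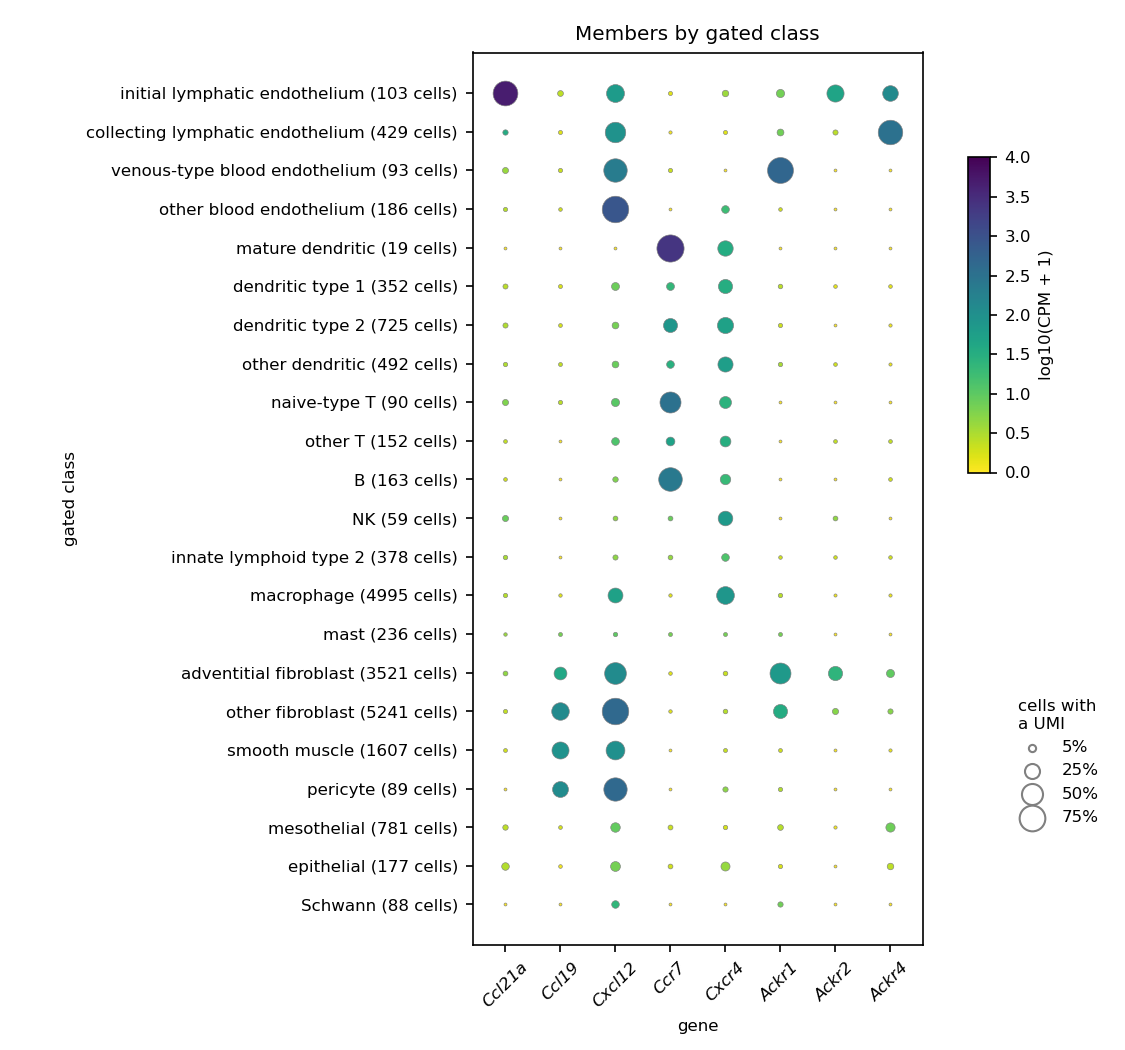
Level of each member (x axis) in each class of marker-gated cells (y axis, with cell numbers); colour is log10(CPM + 1) and circle area the percentage of cells with at least 1 UMI. Ccl21a peaks in initial lymphatic endothelium at 4757 CPM, Ackr4 in collecting lymphatic endothelium at 315 CPM, Ackr1 in venous-type blood endothelium at 495 CPM and Ccr7 in mature dendritic cells at 2450 CPM.

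Ccl21a, the CCR7 ligand made by lymphatic endothelium, was almost entirely a transcript of initial lymphatic cells, which held 92.2% of its UMIs in all cells. Initial cells had 4757 CPM (95% interval 4662 to 4853), against 35.3 CPM (31.0 to 40.1) in collecting cells, a ratio of 135 (118 to 154). Across the 8 suffixes initial cells had 1206 CPM at the lowest, 5055 at the median and 10621 at the highest. Collecting cells had 0, 5.33 and 122 CPM. The groups did not overlap, and initial cells were higher within each of the 8 suffixes. No other class exceeded 7.08 CPM, the value of NK cells from 2 UMIs. Macrophages had 1.78 CPM and B cells, which are not known to express it, 0.97 CPM. A UMI was found in 69.9% of initial cells against 0.61% of B cells, whose median depth was 5077 UMIs; after thinning every cell to 2000 UMIs the shares were 68.0% and 0.61%.

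The Ccl21a of collecting cells sat in very few of them. Of its 239 UMIs there, 226 came from 3 cells with 10 or more, and the other 426 cells had 13 UMIs, or 1.94 CPM (1.03 to 3.32), close to the macrophage value. These 3 cells had 3702 CPM of Ccl21a, 0 UMIs of Ackr4, 2 UMIs of Ackr2 and a Prox1 UMI in each cell. Leaving out suffix 6, which holds 115 of the 239 UMIs, raised the ratio of initial to collecting cells to 218.

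Initial cells themselves fell into a group with much Ccl21a and a group with hardly any. Of the 103 cells, 68 had 10 or more Ccl21a UMIs with a median of 112 and a maximum of 619, 4 had 1 to 9, and 31 had 0. Prox1 was detected in every cell on both sides, at 933 CPM with 10 or more Ccl21a UMIs and 1170 CPM with fewer. Ackr2 followed Ccl21a, with 86.3 CPM (69.3 to 106) in the cells with 10 or more Ccl21a UMIs and 2.05 CPM (0.25 to 7.41) in the other 35. Ackr4 was the reverse: 4.85 CPM (1.57 to 11.3) and 3 of 68 cells, against 249 CPM (219 to 283) and 25 of 35 cells. Cxcl12 was likewise lower in the cells with 10 or more Ccl21a UMIs, at 20.4 CPM (12.6 to 31.1) against 115 CPM (94.6 to 138). The cut at 10 UMIs was chosen after the values were seen, so these values are a description.

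The Lyve1 count of a cell sorted the same genes. With 0, 1, 2 to 9 and 10 or more Lyve1 UMIs, Ccl21a had 35.3, 155, 1622 and 9291 CPM. A Ccl21a UMI was found in 10 of 429, 4 of 30, 6 of 10 and 62 of 63 of these cells, so the lower steps rest on few cells. Ackr4 had 315, 226, 216 and 16.5 CPM over the same steps. Ackr2 had 1.63, 0, 0 and 93.8 CPM. In the cells with 10 or more Lyve1 UMIs, Ccl21a was detected in 98.4% and Ackr4 in 4.76%. Cells with a single Lyve1 UMI were near collecting cells in the share with Ackr4 (66.7% against 68.3%). Their Ackr4 level was lower, with intervals apart (194 to 262 against 302 to 329 CPM), and close to that with 2 to 9 UMIs. The part that free Lyve1 RNA has in placing single-UMI cells among initial cells was not tested.

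**Figure D2:**
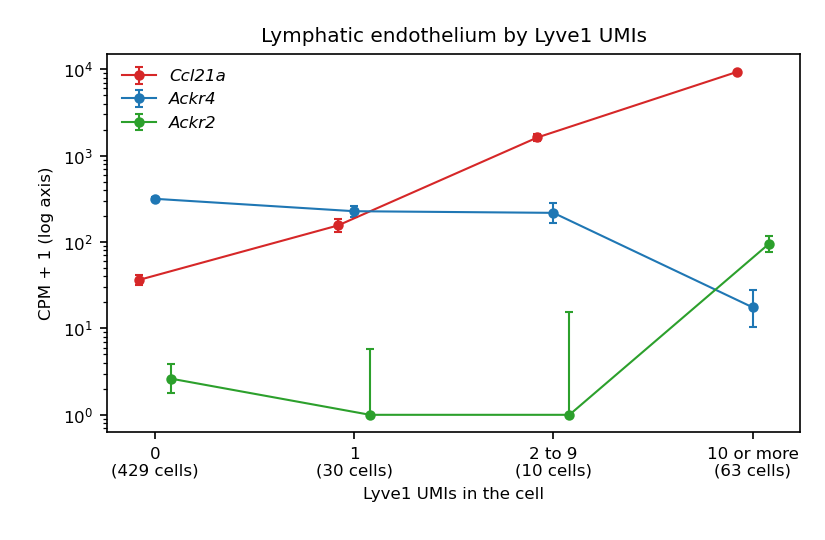
CPM + 1 (log axis) of Ccl21a, Ackr4 and Ackr2 in lymphatic endothelial cells grouped by their Lyve1 UMIs (x axis, with cell numbers); bars are exact Poisson 95% intervals. Ccl21a runs up to 9291 CPM and Ackr4 down to 16.5 CPM in cells with 10 or more Lyve1 UMIs, and Ackr2 stands above 2 CPM there alone.

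Ackr4, the scavenging receptor for CCL19 and CCL21, was mainly a transcript of collecting lymphatic cells, which held 64.6% of its UMIs. Initial cells had 124 CPM (109 to 140), against 315 CPM (302 to 329) in collecting cells, a ratio of 0.39 (0.34 to 0.45), so that collecting cells were 2.55-fold higher. Initial cells ran over the suffixes at 0, 108 and 334 CPM (lowest, median, highest) and collecting cells at 168, 311 and 544 CPM. These ranges overlapped, although initial cells were lower within each of the 8 suffixes. With Lyve1 at 10 or more UMIs required of initial cells, the log2 ratio was -4.26, against -1.35 with 1 or more. Sub-clusters of endothelium, made without the members, gave -4.52 with an initial group of 66 cells.

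Within collecting cells Ackr4 differed little by the number of valve markers detected. It had 322 CPM in 256 cells with UMIs of 2 or 3 of the 3 valve markers and 289 CPM in the other 173 (ratio 1.11, 1.00 to 1.25). The 256 cells also had more gene UMIs per cell, and the split was not matched for depth. Outside lymphatic endothelium the next levels were 8.54 CPM in adventitial fibroblasts and 6.61 CPM in mesothelial cells, whose intervals overlapped, and 4.29 CPM in other fibroblasts. Collecting cells exceeded adventitial fibroblasts 36.9-fold (33.2 to 41.2), in each of the 8 suffixes. Blood endothelium had 0 UMIs in both of its classes. A UMI was found in 68.3% of collecting cells, and in 35.0% at 2000 UMIs, against 0.61% and 0% of B cells. Acad11, on the opposite strand, had 8.47 CPM in initial and 8.87 CPM in collecting cells.

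Ackr2, the scavenger of inflammatory CC chemokines, was found mainly in initial lymphatic cells and in part of the fibroblasts. Initial cells had 45.4 CPM (36.5 to 55.7), against 1.63 CPM (0.81 to 2.91) in collecting cells, a ratio of 27.9 (14.9 to 57.8). Initial cells ran over the suffixes at 0, 40.8 and 163 CPM and collecting cells at 0, 0.53 and 4.23 CPM, and initial cells were higher in 6 of 8 suffixes. The level rests on 91 UMIs from 34 of the 103 cells, a share of 33.0% that fell to 6.80% at 2000 UMIs per cell; B cells had 0 UMIs. Blood endothelium of either class had none.

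**Figure D3:**
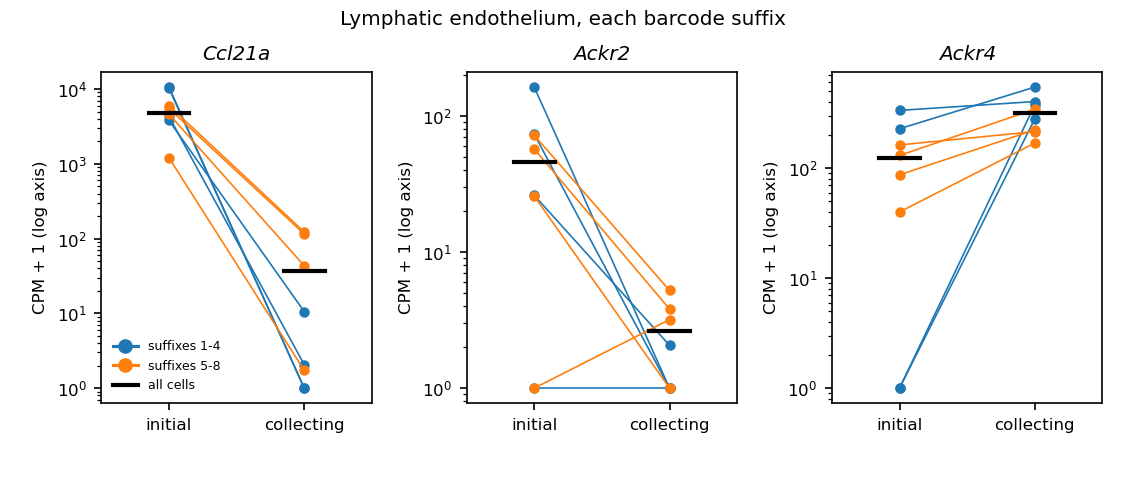
CPM + 1 (log axis) of Ccl21a, Ackr2 and Ackr4 in initial and collecting lymphatic endothelium, 1 point and line for each of the 8 suffixes, blue for 1 to 4 and orange for 5 to 8; black bars show all cells pooled. Ccl21a falls and Ackr4 climbs from left to right on every line, and 6 of 8 Ackr2 lines fall.

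In either lymphatic class 4 of the 8 members reached 10 CPM. By a rule of at least 2-fold with the counting interval apart from 1, Ccl21a and Ackr2 were called higher in initial cells, Ackr4 lower, and Cxcl12 was not called. The rule called 6.5% of the 8814 genes compared, 4.83% higher and 1.67% lower. The members were chosen with earlier results of these data known, so the count is a description.

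Ccl19, the other CCR7 ligand, known from lymph node stroma and mature dendritic cells, was a stromal transcript here. Adventitial fibroblasts, taken by UMIs of both Pi16 and Dpp4, markers of the outer vessel wall, had 40.2 CPM (38.4 to 42.1). Other fibroblasts had 127 CPM (124 to 130) and held 64.6% of its UMIs. The adventitial level was 3.15-fold less, and lower within each of the 8 suffixes. Adventitial cells ran over the suffixes at 21.8, 43.6 and 52.2 CPM and other fibroblasts at 69.2, 92.9 and 307 CPM, with no overlap. Pericytes had 121 CPM from 62 UMIs, an interval that overlapped those of other fibroblasts and of smooth muscle (91.1 CPM). The 19 mature dendritic cells had 0 Ccl19 UMIs (95% interval up to 17.7 CPM). With the 0 set to a floor of 3 counts, their level was 5.96-fold lower than the 85.7 CPM of all fibroblasts. Initial and collecting lymphatic cells had 1.50 and 0.59 CPM, macrophages 0.55 CPM and B cells none.

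By cluster, Ccl19 had 231 CPM in fibroblast cluster 8, led by Pde11a, Agt and Bmper, and 113 CPM in cluster 9, led by Gria4, C2 and Tspan11. It had 6.5 CPM in cluster 7, led by Tmtc2 and Col8a1, in which 70.4% of cells were adventitial. Clusters 14 and 11, with 87.5% and 87.2% adventitial cells, had 59.4 and 42.1 CPM. Cluster 6, with 83.7% other fibroblasts, had 39.3 CPM, so the clusters did not simply follow the adventitial share. Smooth muscle was divided too. Its cells in cluster 15, led by Sorbs2 and by Pln, which regulates the calcium pump of muscle, had 0.71 CPM (0.09 to 2.56). Those in cluster 22, led by H2-M9 and Frmpd4, had 107 CPM, and those in cluster 19, led by Fmo2 and Col14a1, had 198 CPM. Most fibroblast markers moved with these values. The 5 markers summed to 478 CPM in cluster 15, 1629 in cluster 22 and 4782 in cluster 19, with Dcn at 161 CPM in cluster 15, 621 in cluster 22 and 2992 in cluster 19, and Col3a1 at 160, 752 and 1185 CPM. Pdgfra, the receptor that defines fibroblasts, did not follow, at 8.13, 3.27 and 5.62 CPM. Most pericyte Ccl19, 58 of the 62 UMIs, came from 66 pericytes in cluster 19. These had Dcn at 1401 CPM, Col3a1 at 1051 CPM and Pdgfra at 10.8 CPM. The part of fibroblast RNA in the Ccl19 of smooth muscle and pericytes was not tested.

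Cxcl12, the ligand of CXCR4, was highest in blood endothelium outside the venous type and was widely present in stroma. Venous-type cells had 214 CPM (185 to 246), against 862 CPM (808 to 919) in other blood endothelium, a ratio of 0.25 (0.21 to 0.29), and were lower within each of the 8 suffixes. They ran over the suffixes at 59.9, 203 and 364 CPM, below the 533, 773 and 1837 CPM of other blood endothelium without overlap. Markers of pericytes, which had 445 CPM of Cxcl12 themselves, moved with the contrast. All 5 were lower in venous-type cells and summed to 69.9 CPM there (0 to 153 over the suffixes), against 588 CPM (94.7 to 875) in other blood endothelium; Rgs5 had 56.1 against 331 CPM. Of the fibroblast markers 4 of 5 were lower, summing to 322 against 760 CPM, and of the smooth muscle markers 5 of 6, although these summed to 777 against 531 CPM. The part of mural and fibroblast RNA in this contrast was not tested. A UMI was found in 80.1% of other blood endothelial cells, at a median of 3787.5 UMIs, against 2.45% of B cells. Other fibroblasts (451 CPM) and pericytes (445 CPM) came next, with overlapping intervals. The 66 pericytes in cluster 19 had 550 CPM of Cxcl12 beside 1401 CPM of Dcn, and the part of fibroblast RNA there was not tested.

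Adventitial fibroblasts had 121 CPM (118 to 124), against 451 CPM (445 to 456) in other fibroblasts, 3.73-fold less and lower in 8 of 8 suffixes. The ranges, 61.3 to 224 CPM and 396 to 497 CPM, did not overlap. Cxcl12 reached 930 CPM in fibroblast cluster 9, where 94.2% of cells were other fibroblasts, and each suffix there had at least 809 CPM. Clusters 8 and 6 had 342 and 297 CPM, and clusters 11 and 7 had 66.9 and 48.0 CPM. Cluster 14, in which 87.5% of cells were adventitial, had 213 CPM, with 35.1 to 274 CPM over the suffixes. Only 5 of the 8 suffixes held at least 5 cells of cluster 11. The adventitial level differed between the sets of suffixes, at 187 CPM in 1 to 4 and 69.7 CPM in 5 to 8.

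**Figure D4:**
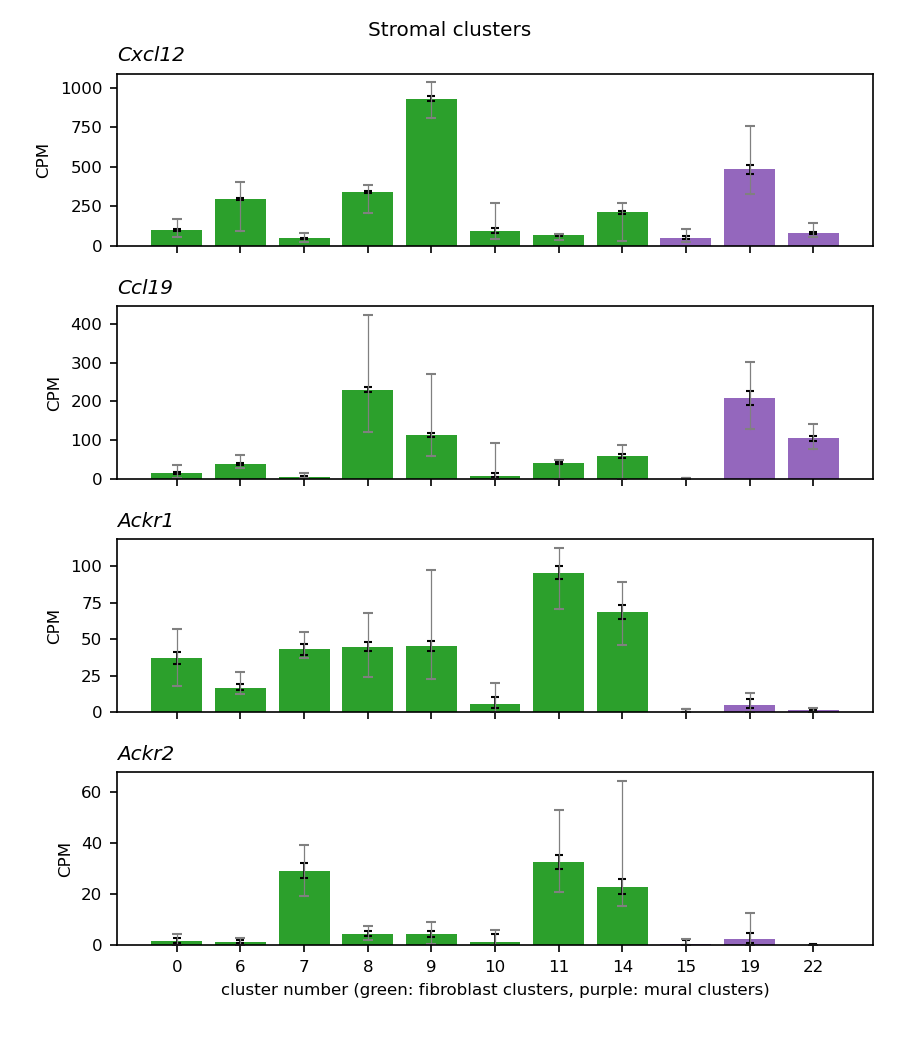
CPM of Cxcl12, Ccl19, Ackr1 and Ackr2 in each fibroblast (green) and mural (purple) cluster, numbered on the x axis; bars show all cells of a cluster, black error bars exact Poisson 95% intervals and grey lines the lowest to the highest suffix. The grey line covers 5 suffixes in cluster 11 and 8 in the others. Cxcl12 peaks in cluster 9 (930 CPM), Ccl19 in clusters 8 and 19 (231 and 208 CPM), and Ackr2 in clusters 7, 11 and 14 (22.8 to 32.5 CPM).

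In lymphatic endothelium Cxcl12 was lower than in most stroma. Initial cells had 66.3 CPM (55.5 to 78.6), against 91.8 CPM (84.7 to 99.3) in collecting cells, a ratio of 0.72 (0.59 to 0.87) that was under 2-fold and lower in 7 of 8 suffixes. Fibroblasts together had 295 CPM, 3.21-fold (2.96 to 3.48) the collecting level and higher in each of the 8 suffixes. Macrophages had 49.5 CPM (47.2 to 51.8) in 24.6% of cells, 8.57-fold (6.36 to 11.8) the 5.77 CPM of dendritic type 2 cells and higher in 8 of 8 suffixes. Fibroblast markers were also higher in macrophages, 5 of 5 of them against either dendritic type 2 or B cells. They summed to 356 CPM in macrophages, 271 in dendritic type 2 cells and 264 in B cells. Dcn had 181, 138 and 136 CPM in these classes. The part of free fibroblast RNA in the Cxcl12 of macrophages was not tested. Split by cluster, the gated macrophages of clusters 1, 2, 3 and 13 had between 38.0 and 51.1 CPM of Cxcl12.

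Venous-type cells were also set against other blood endothelium over all genes. Of the members 3 reached 10 CPM: Ackr1 was called higher, and Cxcl12 and Cxcr4 lower. The rule called 21.5% of 9440 genes, 6.01% higher and 15.5% lower. Cxcr4 had 0 UMIs in venous-type cells against 19 UMIs (17.4 CPM) in other blood endothelium. With the 0 set to a floor of 3 counts it was 5.46-fold lower, which is not an interval limit.

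Ccr7, the receptor for CCL19 and CCL21, was highest in mature dendritic cells, which switch it on before they leave tissue. Dendritic cells were called mature when they had UMIs of at least 3 of 6 markers such as Fscn1, the actin bundler of mature cells. These 19 cells had 2450 CPM (2242 to 2672) from 511 UMIs, against 50.9 CPM in all other dendritic cells, a ratio of 48.1 (42.9 to 53.9). In all, 16 of the 19 cells had a UMI, and the suffix sets 1 to 4 and 5 to 8 had 1908 and 2898 CPM. Only suffix 6 held at least 5 mature cells, so no range over suffixes could be given. Fibroblasts, which are not known to express it, had about 0.5 CPM (0.49 in adventitial, 0.51 in other).

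Over all dendritic cells together, the level stepped up with the number of mature markers in a cell. It was 30.8 CPM with none (1087 cells), 81.5 with 1, 122 with 2 and 2450 with 3 or more. Among cells short of that number, dendritic type 2 cells, marked by Cd209a, had 77.3 CPM (71.1 to 83.8). That was 3.61-fold (2.90 to 4.54) the 21.4 CPM of dendritic type 1 cells, marked by Xcr1, and higher in 7 of 8 suffixes. Even dendritic type 2 cells with no mature marker had 47.1 CPM (40.8 to 54.2), against 16.8 CPM (12.7 to 21.8) in type 1 cells with none. By cluster, Ccr7 had 189 CPM in dendritic cluster 4, led by Stat4, Cd209a and Ms4a4c, and 10.0 CPM in cluster 5. Cluster 4 also held 15 of the 19 mature dendritic cells, and their part in its 189 CPM was not tested. Cluster 5 was led by Lyz1, Retnla, Lpl and C1qb, genes known from monocytes and macrophages. Leading genes were ranked against the other dendritic clusters only, so markers that these clusters share would rank low. Of the cells of cluster 5, 39.4% were other dendritic, 31.3% dendritic type 2 and 25.3% in no class.

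**Figure D5:**
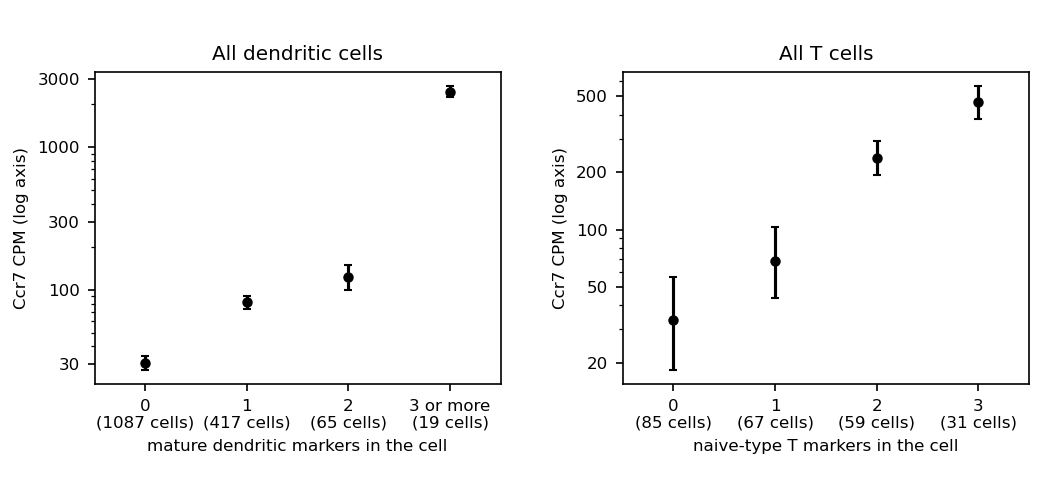
Ccr7 CPM (log axis) in all dendritic cells by the number of mature dendritic markers with a UMI (left) and in all T cells by the number of naive-type markers (right), with cell numbers; bars are exact Poisson 95% intervals. Dendritic cells run from 30.8 CPM to 2450 CPM and T cells from 33.5 CPM to 468 CPM.

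In T cells Ccr7 went with the naive-type markers, among them Lef1 and S1pr1, which mark cells that recirculate through nodes. Naive-type cells (2 or more of 3 markers, 90 cells) had 322 CPM (279 to 370), against 49.2 CPM (34.6 to 67.8) in the other 152, a ratio of 6.56 (4.60 to 9.58). They were higher in each of the 6 suffixes that could be compared, and ran at 122, 514 and 736 CPM against 0, 22.6 and 81.4 CPM, without overlap. The ratio was 12.0 without suffix 2 and 4.36 without suffix 3. With 0, 1, 2 and 3 markers the level was 33.5, 68.7, 239 and 468 CPM. T cells with Cd8a or Cd8b1 had 345 CPM (279 to 422), those with Cd4 196 CPM (153 to 246) and those with gamma-delta receptor genes 58.0 CPM (33.1 to 94.1).

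B cells had 241 CPM of Ccr7 (212 to 273) and a UMI in 63.2% of cells, 4.90-fold (3.46 to 7.13) the level of other T cells and higher in 7 of 7 suffixes. In the order of classes with at least 50 cells, naive-type T cells, B cells, dendritic type 2 cells and other T cells followed each other with intervals apart. NK cells had 2 UMIs (7.08 CPM) and macrophages 0.52 CPM. Neither lymphatic class had more than 1 Ccr7 UMI, nor did venous-type cells, and other blood endothelium had 0.

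The 2-fold rule called Ccr7 in both leukocyte comparisons. Over all 8175 genes compared in mature against other dendritic cells it called 21.5%, 9.9% higher and 11.6% lower; Ccr7 was called higher and Cxcr4 was not called. Over 8594 genes in naive-type against other T cells it called 12.4%, 5.22% higher and 7.16% lower; Ccr7 was called higher, and Cxcl12 and Cxcr4 were not called. Some of the genes so called are the markers that set the classes.

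Cxcr4, the signalling receptor of CXCL12, was spread over myeloid and lymphoid cells. Lymphoid and dendritic cells together had 40.7 CPM, against 1.40 CPM in fibroblasts, smooth muscle, pericytes and mesothelial cells, a ratio of 29.1 (24.7 to 34.4) seen in each of the 8 suffixes. Macrophages had 77.2 CPM (74.4 to 80.1), with 54.9, 84.4 and 108 CPM over the suffixes, and held 57.9% of the UMIs. That was 2.71-fold (1.97 to 3.81) the level of all T cells, in 8 of 8 suffixes. A UMI was found in 35.3% of macrophages (13.6% at 2000 UMIs per cell), against 1.28% (0.26%) of mesothelial cells, whose median depth was 14232 UMIs, above the 7090 of macrophages.

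NK cells (70.8 CPM from 20 UMIs), other dendritic cells (57.5 CPM) and dendritic type 2 cells (51.0 CPM) followed macrophages, with overlapping intervals between neighbours. The smallest classes had the highest values, 398 CPM (223 to 657) in 18 neutrophils from 15 UMIs and 222 CPM (137 to 339) in 14 monocytes from 21 UMIs. Mature dendritic cells had 33.6 CPM from 7 UMIs, against 46.8 CPM in other dendritic cells, a ratio of 0.72 (0.29 to 1.49) that does not show a difference in either direction. Naive-type T cells had 26.0 CPM and other T cells 30.6 CPM (ratio 0.85, 0.42 to 1.69). B cells had 19.4 CPM. Initial and collecting lymphatic cells had 6 and 4 UMIs.

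Ackr1, the chemokine carrier of small veins, was high in venous-type cells and all but undetected in other blood endothelium. Venous-type cells had 495 CPM (451 to 542), against 0.91 CPM from a single UMI in other blood endothelium, a ratio of 541 (96.7 to 21424). They ran over the suffixes at 299, 521 and 763 CPM and were higher in each of the 8. Without suffix 7, which holds the single UMI, the ratio was 136 with the 0 set to the floor of 3 counts. A UMI was found in 76.3% of venous-type cells (43.8% at 2000 UMIs), against 0 of 163 B cells, whose floor of 3 counts is 2.92 CPM. By clusters the contrast was narrower, at a log2 ratio of 4.42 against 9.08 by gates.

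Most Ackr1 UMIs came from fibroblasts, 53.1% from adventitial and 29.7% from other ones. Adventitial fibroblasts had 68.8 CPM (66.5 to 71.2), against 34.5 CPM (32.9 to 36.1) in other fibroblasts, a ratio of 2.00 (1.88 to 2.12) seen in each of the 8 suffixes. Venous-type cells exceeded adventitial fibroblasts 7.19-fold (6.51 to 7.92), in 8 of 8 suffixes. The fibroblast level was highest in cluster 11, led by Edn1 and Stmn4, at 95.7 CPM, a cluster with at least 5 cells in only 5 suffixes. Macrophages, which share the suspension, had 1.67 CPM.

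The overlapping gene Cadm3 moved with Ackr1 in fibroblasts. Cadm3 had 247 CPM in adventitial and 127 CPM in other fibroblasts, and there were 27.9 and 27.2 Ackr1 UMIs per 100 Cadm3 UMIs. Over 8 fibroblast clusters this number stayed between 18.7 and 33.7, whereas it was 730 in venous-type endothelium. Adventitial fibroblasts without a Cadm3 UMI (731 cells) had 29.5 CPM of Ackr1 and those with one (2790) had 78.0 CPM; in other fibroblasts the values were 14.8 and 53.7 CPM. In venous-type cells they were 509 and 478 CPM. Fibroblast reads of Ackr1 and Cadm3 in the shared interval cannot be told apart, so the fibroblast level is uncertain; how much of it is Cadm3 was not tested.

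Ackr2 separated the fibroblast classes more than Ackr1 or Ackr4 did in ratio. Adventitial fibroblasts had 23.9 CPM (22.5 to 25.3), against 4.24 CPM (3.70 to 4.83) in other fibroblasts, a ratio of 5.63 (4.87 to 6.53) seen in each of the 8 suffixes. Adventitial cells ran over the suffixes at 12.0, 24.1 and 34.7 CPM and other fibroblasts at 1.32, 3.92 and 7.79 CPM, without overlap. Clusters 11, 7 and 14, led by Edn1, Tmtc2 and Mrgprg, had 32.5, 29.1 and 22.8 CPM; the other 5 fibroblast clusters had at most 4.40 CPM. Initial lymphatic cells exceeded adventitial fibroblasts 1.90-fold (1.52 to 2.36), in 5 of 8 suffixes only, although adventitial fibroblasts, being numerous, held 74.1% of Ackr2 UMIs. Cluster 7 was also the fibroblast cluster with the most Ackr4, at 33.7 CPM (30.6 to 37.1).

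In either fibroblast class 4 members reached 10 CPM. Ackr2 was called higher in adventitial cells, Ccl19 and Cxcl12 lower, and Ackr1, just under 2-fold, was not called. The rule called 6.85% of 8746 genes, 3.24% higher and 3.61% lower. This comparison was added after the values had been seen.

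Of 30 further chemokine, receptor and homing genes, 27 reached 20 CPM in at least 1 class, and 6 of the 30 were also class markers. In initial against collecting lymphatic cells, where the rule called 4.83% of all genes higher and 1.67% lower, 8 were compared: Ccrl2, another atypical receptor-like gene, was called higher (12.5 against 5.03 CPM) and Cx3cr1 lower (5.98 against 13.3 CPM). Ackr3, the scavenging receptor of CXCL12, had 226 CPM in initial and 399 CPM in collecting cells, a ratio of 0.57 (0.51 to 0.63) in 8 of 8 suffixes that was not called. Gpr182, an endothelial receptor known to bind chemokines, had 91.2 CPM in initial cells and 68.8 CPM in collecting cells. Ccl25, the third ligand of ACKR4, had 11.0 and 11.5 CPM.

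In venous-type against other blood endothelium 11 of the list were compared, with 3 called higher and 3 lower (6.01% and 15.5% over all genes). Gpr182 (50.8 against 12.8 CPM), Cxcl16 and Cx3cl1, which encode membrane-bound chemokines, were higher. The interferon-induced ligands Cxcl9 (7.41 against 91.4 CPM) and Cxcl10, and Ccl5, were lower. In mature against other dendritic cells 8 of 15 were called higher, of which Ccl22 sets the class, and 3 lower (9.9% and 11.6% over all genes). Ccl5 had 4828 against 76.7 CPM, and the CCR4 ligand Ccl17 964 against 114 CPM. Among those lower were the receptors Ccr1 and Ccr2, Ccr2 with 86.3 against 409 CPM.

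In naive-type against other T cells 3 of 14 were called higher, among them S1pr1, a marker that sets the class, and 6 lower, among them the tissue-homing receptor Cxcr6 (61.9 against 593 CPM); over all genes the shares were 5.22% and 7.16%. In adventitial against other fibroblasts 2 of 9 were called higher, Ackr3 (505 against 159 CPM, 3.19-fold) and the class marker Dpp4. Cxcl14 (42.4 against 449 CPM), Cxcl16 and Cxcl9 were called lower. Over all genes 3.24% were called higher there and 3.61% lower. Cxcr5 and Ccr6, homing receptors of B cells, each had 221 CPM in B cells and 7.97 CPM in the next class of at least 50 cells.

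The genes most like a member in pattern were found by Pearson correlation of log2(CPM + 10) over the 21 classes of at least 50 cells. It is a description of points that share 1 suspension and its free RNA. Mature dendritic cells, where Ccr7 was highest, were too few to take part. The same holds for neutrophils and monocytes, where Cxcr4 was highest. Slc38a4 (r = 0.99) and Tc2n (0.93) were among the nearest to Ccl21a, both highest in initial lymphatic cells. Duox2 (0.99), Duoxa2 (0.98) and Ahsg (0.98) were nearest to Ackr4, all highest in collecting cells. For Ackr2 they were Kcnn3 (0.91), Slc38a4 (0.81) and Ccl21a itself (0.79). Tacr1 (0.83), Lepr (0.82) and Myrip (0.78) were nearest to Ackr1, in venous-type endothelium. Among the others, Ccl19 was nearest to Astn2, Il17d and Srpx (0.96 to 0.97), Cxcl12 to Ebf3, Snai1 and Col4a2 (0.90 to 0.91), Ccr7 to Ms4a4c, Zc3h12d and Clec2i (0.85 to 0.91), and Cxcr4 to Itgb2 and AI662270 (0.91).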

How the data were processed

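Cells were droplet-captured from 4 female and 4 male mice with a gene expression and a tag library per sex. The deposited values are raw UMI counts per gene and barcode; per the file headers they come from Cell Ranger 7.1.0, and the submitters' processing notes list in addition the package Seurat (4.3.0.1) and mm10, the mouse build, without steps. Other value columns not used numbered 0. Barcodes with at least 500 UMIs, 300 genes and under 15% mitochondrial UMIs were kept, and simulated-doublet scoring (expected rate 6%) was run per suffix set.

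A class score was the mean over its markers of log-normalised expression divided by the 95th percentile of expressing cells, capped at 1; a cell needed a score of 0.3 and a lead of 0.15 over other lineages. UMIs were summed per class into CPM. Because barcodes name no mouse, no model was fitted and no p-value given. Leiden clusters (2000 variable genes without the members, 30 components, 15 neighbours, resolution 1.0; scanpy 1.11.5) were the alternative to gates. Cluster lineages follow the same markers, and clusters are given by number. Genes that lead a cluster had the highest fold over the other clusters of its lineage, with 10 CPM added to both. Python 3.11.15, numpy 2.4.6, scipy 1.17.1 and pandas 2.3.3 were used. The 2-fold rule was tried on simulated Poisson counts for initial and collecting cells. Such counts hold counting error only, so the trial cannot speak for spread between cells or mice.

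The members, lists, markers and gates were chosen with earlier results of these data known. Text names every member, list genes at 20 CPM or more in a class, and the 3 genes most like each member among those at 50 CPM or more; cluster genes and Cadm3, Acad11, Dcn, Col3a1, Pdgfra, Rgs5 and Prox1 were named after their values were seen. A few items that these rules select are not reported here. Shares carry exact Clopper-Pearson bounds in the tables. Positions come from GENCODE M21. Alternatives were other filters, gates, clusters, suffix sets, leaving out each suffix, equal suffix weights, Lyve1 limits, thinning and no minimum CPM.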

Additional observations from a re-analysis of the deposited data

Results flagged for a closer look

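Besides the Ccl21a row used throughout, 2 further gene rows carry its sequence or nearly so and held UMIs. They drew attention because neither enters the comparisons and each was above the floor of 3 counts. Gm21541 had 20 UMIs over all barcodes, 15 of them in initial lymphatic endothelium, 1 each in B cells, macrophages and other fibroblasts. The row of Ccl21a on an unplaced scaffold had 4 UMIs. Both are small beside the 11502 UMIs of the main row, and whether they stem from these copies or from Ccl21a was not tested.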

How the results depend on the processing

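No paired analysis was possible because every result is a value without a test, and the labels tie no suffix to a mouse. Classes were set side by side within suffixes instead. Over 16 ratios and 259 alternative values, 0 changed direction, 75 were classed as moved and 184 as the same. Values below are log2 ratios, the reported one first. Ccl21a in initial over collecting cells (7.07) was 7.93 by clusters, 10.94 in suffixes 1 to 4, 6.13 in 5 to 8, 7.77 with 2 or more Lyve1 UMIs, 8.04 with 10 or more, 7.32 with equal suffix weights and 11.26 with collecting cells under 10 Ccl21a UMIs. Ackr4 (-1.35) was -4.52 by clusters, -1.08 in suffixes 5 to 8, and -2.44 and -4.26 at the Lyve1 limits of 2 and 10. Ackr2 (4.80) was 6.41 by clusters and 7.35 in suffixes 1 to 4. Ackr1 in venous-type over other blood endothelium (9.08) was 4.42 by clusters and 5.81, set by the floor of 3 counts, in suffixes 1 to 4. Ccr7 in mature over other dendritic cells (5.59) was 6.08 by clusters, 5.18 with all barcodes or with doublets kept, 4.996 in suffixes 1 to 4 and 6.11 in 5 to 8. Ccl19 in mature dendritic cells over fibroblasts (-2.58, set by the floor and so by depth) was -1.89 by clusters, -1.15 in suffixes 1 to 4 and -1.92 in 5 to 8. Cxcl12 in fibroblasts over collecting cells (1.68) was 2.49 and 1.13 in those sets. Cxcr4 in lymphoid and dendritic cells over stroma (4.86) was 4.47 by clusters, with all barcodes and with doublets kept.

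Leaving out each suffix gave 6.85 to 7.77 for Ccl21a, -1.51 to -1.23 for Ackr4, 4.51 to 5.22 for Ackr2, 7.09 to 9.01 for Ackr1, 5.32 to 5.85 for Ccr7, -2.55 to -2.21 for Ccl19, 1.55 to 1.92 for Cxcl12 and 4.76 to 5.002 for Cxcr4. Genes called at 2-fold in initial over collecting cells (573) numbered 1414 by clusters, 1182 in suffixes 1 to 4, 1204 and 1541 at the Lyve1 limits of 2 and 10, 1170 without a minimum and 529 to 745 by leaving out a suffix. In mature dendritic cells (1761) they numbered 1061 in suffixes 1 to 4 and 1490 to 1902 by leaving out a suffix, and in adventitial fibroblasts (599) 2366 without a minimum and 584 to 619. Venous-type cells (2029) gave 1921 to 2042 and naive-type T cells (1064) 1025 to 1088. The causes were not tested. Clusters gave no value for naive-type T cells or adventitial fibroblasts, and equal weights none for Ccl19. Lyve1 at 10, collecting cells by Ccl21a, fibroblast calls and cells without Cadm3 were added after seeing the data. Of 11 shares of cells with a UMI, 10 were lower at 2000 UMIs by more than their intervals. Depth limits the small classes, such as mature dendritic cells.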
